A study of Mus musculus with 12 samples.

Results

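Lysosomes break down proteins, lipids and glycans delivered by endocytosis, phagocytosis and autophagy. Their soluble hydrolases work at low pH, which is kept by the V-ATPase, a rotary proton pump built from a membrane-embedded V0 sector and a cytosolic, ATP-hydrolysing V1 sector. Many of these genes carry the CLEAR motif, an E-box bound by TFEB and TFE3, near their start sites, and macrophages are rich in lysosomes. The 39 lysosomal genes described here were chosen by name, for their textbook function, and not by a cutoff on a measured value. They comprise 18 luminal hydrolases and cofactors, 6 membrane proteins, 5 V0 subunits, 8 V1 subunits and 2 V-ATPase accessory proteins. All 39 were among the 9621 genes listed in the files, and all 39 passed the filter on low values in each fit.

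Levels were measured in RAW264 cells, an established mouse macrophage line, by sequencing of poly(A) mRNA and of ribosome-protected fragments (footprints). The groups were cells given LPS, a bacterial endotoxin, at 100 ng/ml together with DEX (dexamethasone, a synthetic glucocorticoid) at 10 µM for 30 min, cells given LPS alone at the same dose and time, and untreated basal cells. Each group had 2 mRNA and 2 footprint libraries, described as independent biological replicates, and cells of every group were exposed to cycloheximide at 100 µg/ml before extraction. No group received DEX alone.

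The 12 libraries held between 821946 and 2529666 reads, and the LPS footprint libraries were the shallowest, at 829415 and 821946. Of 16 macrophage markers 15 were listed, all but Mrc1, and their summed level was 5057 to 6101 CPM (a gene's reads scaled to the same total in each library) in mRNA libraries. The Tnf mRNA level was 1486 and 1152 CPM after LPS+DEX, 949.8 and 1419 CPM after LPS, and 80.0 and 87.7 CPM in basal cells. Footprints of Dusp1, a glucocorticoid-induced phosphatase, were at 223 and 221 CPM after LPS+DEX, 16.9 and 18.2 CPM after LPS, and 7.63 and 5.26 CPM in basal cells. One mRNA library, that of basal replicate 1, differed from the rest. Its Spearman correlation with the other mRNA libraries was 0.78 to 0.83, and it alone held the epithelial keratin Krt7 at 1108 CPM and the renin gene Ren1 at 402 CPM, against at most 2.43 CPM in the other 11 libraries. Only 3 of 20 markers of other cell types were listed, these 2 and the collagen gene Col3a1. Col3a1 mRNA was at 75.1 and 61.6 CPM after LPS+DEX, 46.7 and 51.4 CPM after LPS, and 3.39 and 16.2 CPM in basal cells, and its footprints at 134 and 128 CPM after LPS+DEX, 65.1 and 60.8 CPM after LPS, and 142 and 115 CPM in basal cells. Relative to basal cells Col3a1 rose in mRNA after LPS (log2 fold change 2.52, adjusted p = 0.0339) and after LPS+DEX (2.99, adjusted p = 0.0120), and fell in footprints after LPS (-1.01, adjusted p = 0.0006). Its translational efficiency (TE), the ratio of footprints to mRNA, fell after LPS (-3.53, adjusted p = 0.0031) and after LPS+DEX (-2.95, adjusted p = 0.0078) relative to basal cells, and its footprints rose after LPS+DEX relative to LPS (1.04, adjusted p = 0.0005327). Its mRNA rise after LPS did not pass (2.29, adjusted p = 0.0554) with the libraries scaled by median-of-ratios. The summed mRNA level of the 3 was 77.5 and 62.9 CPM after LPS+DEX, 47.9 and 54.9 CPM after LPS, and 1514 and 16.2 CPM in basal cells, where Krt7 and Ren1 were at 0 in replicate 2. Their summed footprints were 136 and 128 CPM after LPS+DEX, 68.7 and 64.5 CPM after LPS, and 143 and 118 CPM in basal cells. Most counts and medians that rest on basal mRNA are therefore also given without basal replicate 1. The part of these genes in the results was not tested. In bulk RNA of this kind, fewer cells of one kind and less RNA per cell cannot be told apart.

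The CLEAR core was searched in the promoters of these genes because it is the sequence that the family is known for. RefSeq promoter windows of build GRCm38.p6, from 250 bases before to 50 bases after the start, were present for 32 of the 39 genes. The letters TCACGTG, on either strand, occurred in 9 of these 32 windows (28.1%), compared with 564 of 7378 listed genes with a window (7.64%) and 1160 of 27025 genes in the whole table (4.29%). The shorter E-box CACGTG, which lies within the CLEAR core, was present in 10 of the 32 windows (31.25%), in 12.6% of listed genes and in 8.09% of all genes. The genes with the core were the luminal Ctsa, Ctsd, Gaa and Lgmn, the membrane gene Lamp1, the V0 genes Atp6v0b, Atp6v0d1 and Atp6v0e, and the V1 gene Atp6v1a. One site of each is printed below on the strand of its gene, with the core in capitals (8 capitals where both strands match), and Lamp1 is shown with its 4 sites because no other of the 9 windows held so many.
Gaa, chr11:119267811-119267839, plus strand: tttctgtgcgaTCACGTGtttgactctga
Ctsd, chr7:142387908-142387937, minus strand: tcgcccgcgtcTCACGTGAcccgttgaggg
Ctsa, chr2:164833749-164833778, plus strand: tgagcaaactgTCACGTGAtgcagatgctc
Lgmn, chr12:102439125-102439153, minus strand: tggaatgtctgTCACGTGgtccattttat
Lamp1, chr8:13159088-13159116, plus strand: agggcaagataTCACGTGgtccagcgccc
Lamp1, chr8:13159105-13159133, plus strand: ggtccagcgccCACGTGAtgccgactggc
Lamp1, chr8:13159122-13159150, plus strand: atgccgactggCACGTGAccacatcacgt
Lamp1, chr8:13159134-13159162, plus strand: acgtgaccacaTCACGTGcggaacggagc
Atp6v0b, chr4:117887349-117887377, minus strand: gtgcgcgggggTCACGTGgggtcggcgca
Atp6v0d1, chr8:105566050-105566079, minus strand: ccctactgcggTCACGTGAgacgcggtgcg
Atp6v0e, chr17:26676387-26676416, plus strand: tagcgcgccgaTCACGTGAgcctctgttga
Atp6v1a, chr16:44139373-44139402, minus strand: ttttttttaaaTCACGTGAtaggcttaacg
The core in Lamp1 began 62, 45, 28 and 16 bases before the start, and that of Gaa began 141 bases before it. The 250 bases upstream of 2 genes are shown in full, Ctsd because it led the mRNA levels and Gaa because its mRNA change after LPS was the largest of the 39.
Ctsd, chr7:142387828-142388077, minus strand: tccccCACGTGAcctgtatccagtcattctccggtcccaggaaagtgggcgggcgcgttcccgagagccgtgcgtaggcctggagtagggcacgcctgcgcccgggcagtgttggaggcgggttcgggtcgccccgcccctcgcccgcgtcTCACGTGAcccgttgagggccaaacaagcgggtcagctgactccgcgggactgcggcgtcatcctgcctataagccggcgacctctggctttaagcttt
Gaa, chr11:119267713-119267962, plus strand: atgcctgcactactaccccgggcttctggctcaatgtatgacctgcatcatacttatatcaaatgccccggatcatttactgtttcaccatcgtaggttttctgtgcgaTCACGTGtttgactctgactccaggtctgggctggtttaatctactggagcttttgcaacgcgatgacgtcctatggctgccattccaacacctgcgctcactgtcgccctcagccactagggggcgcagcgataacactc

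Lysosomal genes were prominent in these cells, and the proteases Ctsd and Ctsb led them. Ctsd, the main aspartic protease of lysosomes, was the highest of the 39 in each mRNA library. Its mRNA level was 2459 and 2144 CPM after LPS+DEX, 2988 and 2388 CPM after LPS, and 2309 and 2279 CPM in basal cells. Only 22 to 52 of the 9621 genes exceeded it in an mRNA library. Ctsb, a cysteine protease, was the highest of the 39 in each footprint library, at 2872 and 2782 CPM after LPS+DEX, 3153 and 3293 CPM after LPS, and 3376 and 3420 CPM in basal cells. At the other end, mRNA of the 39 was lowest for Scarb2, Atp6v0a1 or Atp6ap2, depending on the library, at 19.0 to 40.9 CPM. These CPM values were not divided by gene length, so the order mixes length with abundance.

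Together the 39 genes took 1.73% ± 0.07 of mRNA reads after LPS+DEX, 1.78% ± 0.08 after LPS and 1.52% ± 0.05 in basal cells (SD, n = 2 each), where replicate 1 had 1.49% and replicate 2 had 1.56%. In footprints the basal share was the highest, with 2.09% ± 0.06 after LPS+DEX, 2.17% ± 0.02 after LPS and 2.36% ± 0.03 in basal cells (SD, n = 2 each). The luminal genes followed this pattern. Their share of footprints was 1.51% ± 0.04 after LPS+DEX, 1.58% ± 0.02 after LPS and 1.71% ± 0.003 in basal cells, and the libraries of either treatment lay below both basal libraries. The V-ATPase genes did not follow it in mRNA, where their share was 0.215% ± 0.001 after LPS+DEX, 0.231% ± 0.015 after LPS and 0.221% ± 0.012 in basal cells, and the basal libraries, at 0.212% and 0.230%, overlapped both treatments. Basal replicate 2 alone lay above both LPS+DEX libraries and between those of LPS. Nor was the basal share of the V-ATPase genes the highest in footprints. It was 0.3204% ± 0.0175, compared with 0.2984% ± 0.0024 after LPS+DEX and 0.3223% ± 0.0041 after LPS. The shares are descriptions of 2 libraries a group and were given no test. For LPS over basal cells the median log2 fold change over all genes was 0.26 in mRNA and -0.07 in footprints. A rise in mRNA share and a fall in footprint share therefore do not set the 39 genes apart.

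**Figure D1:**
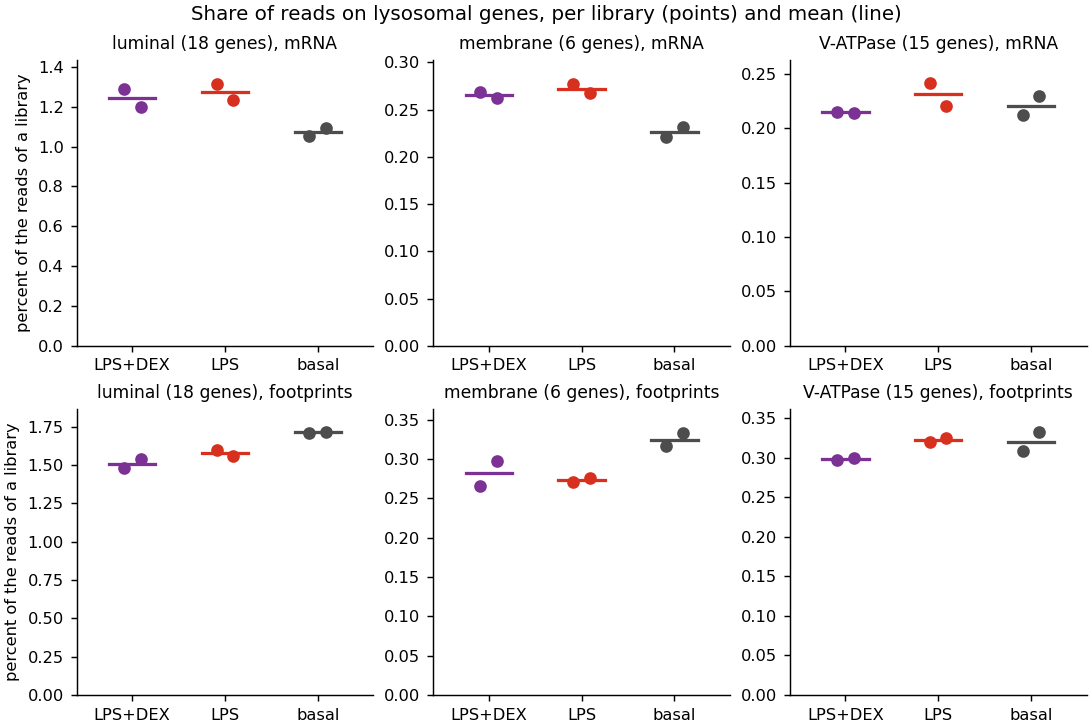
Share of the reads of each library that fell on the 18 luminal, 6 membrane and 15 V-ATPase genes (V0, V1 and accessory), in mRNA (top) and footprints (bottom), for LPS+DEX, LPS and basal cells; points are libraries, lines their mean, and axes start at 0. Luminal genes averaged 1.25%, 1.27% and 1.07% of mRNA reads and 1.51%, 1.58% and 1.71% of footprints in LPS+DEX, LPS and basal cells.

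Of 39 genes, 6 rose after LPS relative to basal cells and 0 fell, and these were Gaa, Man2b1, Gusb, Grn, Psap and the membrane gene Npc1. Over all 9277 genes tested 9.03% rose and 1.68% fell, and 15.4% of the 39 rose (limma, Benjamini-Hochberg adjusted p under 0.05). The median log2 fold change was 0.28 over the 39 genes, close to 0.26 over all genes tested. Without basal replicate 1 these medians were 0.23 and 0.22.

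Gaa encodes acid alpha-glucosidase, which degrades lysosomal glycogen. Its mRNA level was 176 and 139.6 CPM after LPS+DEX, 128 and 148 CPM after LPS, and 61.0 and 63.9 CPM in basal cells. The 4 treated libraries all lay above both basal libraries. Gaa mRNA rose after LPS, by 1.13 on the log2 scale (SE 0.17, adjusted p = 0.0205), and after LPS+DEX relative to basal cells with 1.31 (SE 0.17, adjusted p = 0.0070). Npc1 encodes the membrane protein that exports cholesterol from lysosomes. Its mRNA level was 70.0 and 57.6 CPM after LPS+DEX, 57.3 and 68.5 CPM after LPS, and 29.2 and 31.4 CPM in basal cells, again with no overlap between treated and basal libraries. Npc1 rose after LPS (log2 fold change 1.03, SE 0.19, adjusted p = 0.0258) and after LPS+DEX relative to basal cells (1.05, SE 0.19, adjusted p = 0.0122).

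Man2b1 encodes the acid alpha-mannosidase that trims glycoprotein glycans. Its mRNA level was 212 and 210.0 CPM after LPS+DEX, 128 and 175 CPM after LPS, and 92.2 and 74.7 CPM in basal cells. The 3 groups did not overlap, and the log2 fold change over basal cells was 1.34 after LPS+DEX (SE 0.19, adjusted p = 0.0079) and 0.84 after LPS (SE 0.19, adjusted p = 0.0344). Grn encodes progranulin, a secreted and lysosomal glycoprotein cut into granulins. Its mRNA level was 1029 and 943 CPM after LPS+DEX, 1012 and 887 CPM after LPS, and 564 and 591 CPM in basal cells. The log2 fold change of Grn over basal cells was 0.77 after LPS+DEX (SE 0.12, adjusted p = 0.0087) and 0.71 after LPS (SE 0.12, adjusted p = 0.0223).

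Gusb, beta-glucuronidase, had 667 and 627 CPM of mRNA after LPS+DEX, 654 and 613 CPM after LPS, and 426 and 456 CPM in basal cells. Psap, the precursor of the saposins that present sphingolipids to hydrolases, had 1444 and 1431 CPM after LPS+DEX, 1233 and 1303 CPM after LPS, and 919.9 and 970.03 CPM in basal cells. For both genes each treated library exceeded each basal library. Gusb rose by a log2 fold change of 0.55 after LPS+DEX and 0.52 after LPS, and Psap by 0.61 after LPS+DEX and 0.42 after LPS, each relative to basal cells. Without basal replicate 1 the changes of Gusb were 0.50 and 0.47, and those of Psap 0.57 and 0.39, in the same order. Both calls of Gusb, and that of Psap after LPS, were lost in that fit. Neither gene passed in mRNA with the libraries scaled by median-of-ratios.

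**Figure D2:**
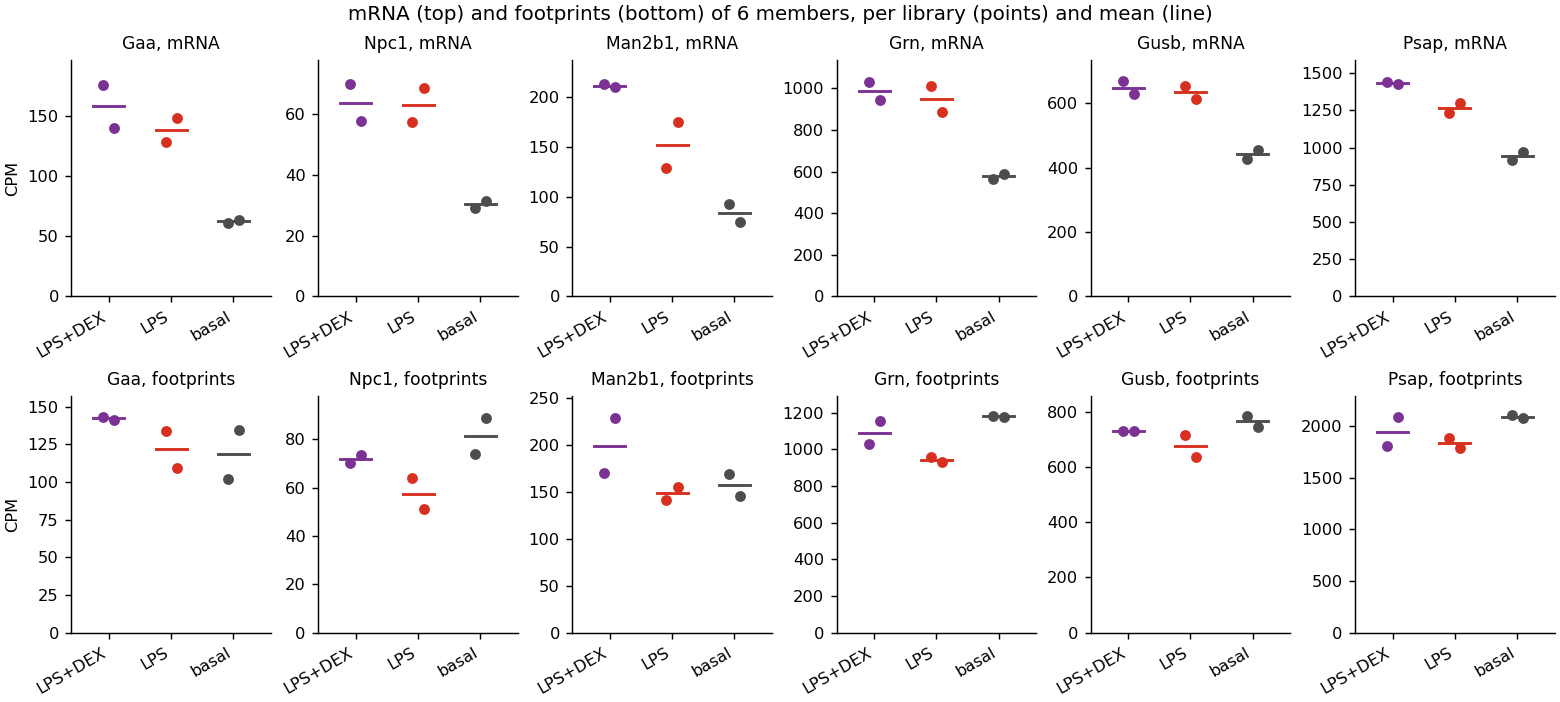
CPM of the 6 genes whose mRNA rose after LPS, in mRNA (top row) and footprints (bottom row), for LPS+DEX, LPS and basal cells; points are libraries, lines their mean, and each axis starts at 0. In the top row each treated library lies above both basal libraries; in the bottom row the LPS libraries overlap the basal ones or lie below them, as for Grn at 957 and 929.5 CPM after LPS against 1183 and 1179 CPM in basal cells.

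The V-ATPase genes did not pass in this comparison, with 0 of 5 V0, 0 of 8 V1 and 0 of 2 accessory genes called by limma. Of them 0, 2 and 1 had an unadjusted p under 0.05. Over all genes 9.03% rose and 1.68% fell, so 0 calls in classes this small do not set the V-ATPase genes apart. With limma-voom on recovered reads, 4 of the 39 genes rose and 0 fell, beside 3.83% higher and 1.17% lower over all genes. The CPM scale itself bears on these counts. Median-of-ratios scaling, which centres the libraries on their typical gene, shifted the log2 fold change of a typical gene by -0.26 for LPS against basal cells and by -0.28 for LPS+DEX against basal cells. On that scale 1 of the 39 genes rose after LPS, Gaa (log2 fold change 0.87, adjusted p = 0.0370), and 1 fell, the V1 subunit gene Atp6v1f (-0.73, adjusted p = 0.0310), while 1.98% of all genes tested rose and 3.42% fell. Without basal replicate 1, 4 genes rose and 0 fell, beside 7.87% higher and 1.43% lower over all genes. Without LPS replicate 1 the median log2 fold change was 0.23 over the 39 genes and 0.27 over all genes. Without LPS replicate 2 these medians were 0.29 and 0.25.

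Adding DEX to LPS gave 0 genes higher and 0 lower of the 39 in mRNA, in limma and in limma-voom, and 3 had an unadjusted p under 0.05. The background was the same, with 0.0% of the 9277 genes tested higher and 0.0% lower. Dusp1 did not pass either, at 441 and 483 CPM of mRNA after LPS+DEX and 41.4 and 54.9 CPM after LPS. The 0 of 39 therefore does not show that DEX left these mRNA levels unchanged. The median log2 fold change of the 39 was -0.06, compared with 0.02 over all genes tested.

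LPS+DEX against basal cells shares its basal libraries with the comparison above, so its values stand beside the earlier ones and are not independent of them. In mRNA 9 of the 39 genes rose and 1 fell, against backgrounds of 18.5% higher and 4.23% lower. Besides Gaa, Npc1, Man2b1, Grn, Gusb and Psap, the genes that rose were Lgmn, Ctsa and Lamp1. Lgmn encodes legumain, an asparaginyl endopeptidase that also activates cathepsins. Its mRNA level was 437 and 455 CPM after LPS+DEX, 330.4 and 383 CPM after LPS, and 279 and 305 CPM in basal cells. The treated libraries were all above the basal ones, and the log2 fold change for LPS+DEX over basal cells was 0.61 (SE 0.13, adjusted p = 0.0156).

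Ctsa, a carboxypeptidase that also protects beta-galactosidase and neuraminidase, rose by a log2 fold change of 0.41 (adjusted p = 0.0334), and Lamp1, a heavily glycosylated protein of the lysosomal membrane, by 0.37 (adjusted p = 0.0342). Without basal replicate 1 these changes were 0.40 for Ctsa and 0.38 for Lamp1. Neither call held with any 1 mRNA library left out, or in mRNA on the median-of-ratios scale. Lamp1 was the most abundant membrane gene, with 1301 and 1356 CPM of mRNA after LPS+DEX, 1306 and 1328 CPM after LPS, and 1038 and 1019 CPM in basal cells. Atp6v1f, subunit F of the V1 rotor, fell. It had 173 and 160.4 CPM of mRNA after LPS+DEX, 184 and 189 CPM after LPS, and 269 and 248 CPM in basal cells. Both basal libraries lay above the 4 treated ones, and the log2 fold change was -0.63 for LPS+DEX over basal cells (SE 0.13, adjusted p = 0.0142) and -0.47 for LPS over basal cells, which did not pass on the CPM scale.

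On the median-of-ratios scale the split of 9 higher and 1 lower became 4 higher and 7 lower, beside 7.76% higher and 8.90% lower over all genes tested, and the median of the 39 genes was -0.12, compared with 0.17 on the CPM scale. Gaa, Man2b1, Npc1 and Grn passed as higher on both scales, and Atp6v1f as lower on both. The 6 that passed as lower on the median-of-ratios scale alone were Atp6v0e, Ctss, Cd63, Asah1, Ctsl and Atp6v1e1, at log2 fold changes of -0.93, -0.87, -0.85, -0.79, -0.75 and -0.61. Without basal replicate 1 the median of the 39 genes was 0.16 on the CPM scale, compared with 0.24 over all genes. The split of 9 higher and 1 lower did not hold in that fit, where fewer genes passed as higher and more as lower. The median was 0.11 without LPS+DEX replicate 1 and 0.21 without LPS+DEX replicate 2, beside 0.34 and 0.24 over all genes.

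Footprints of the same genes followed another course than their mRNA, as did the median over all genes. After LPS relative to basal cells 1 of the 39 genes rose and 4 fell in footprints, while 3.3% of 8847 genes tested rose and 4.32% fell. The median log2 fold change was -0.11 for the 39 genes and -0.07 for all genes. The 4 that fell were Grn, Npc2, Lamp1 and Atp6v1a, and the 1 that rose was the V1 subunit gene Atp6v1d.

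**Figure D3:**
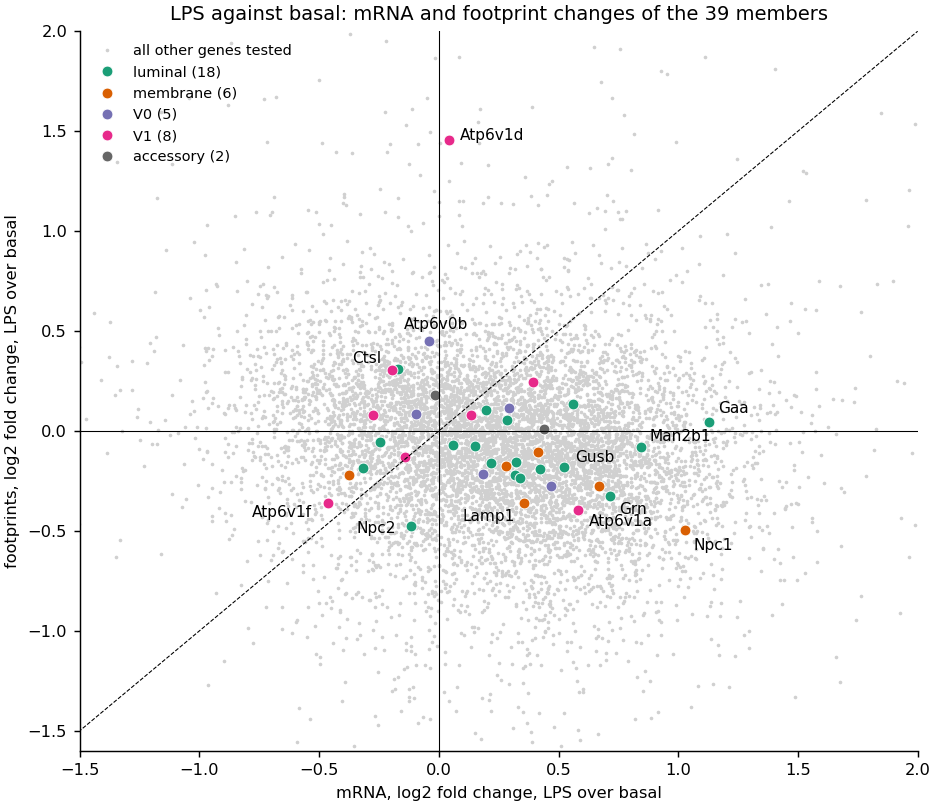
Log2 fold change of LPS over basal cells in mRNA (horizontal) and footprints (vertical) for the 39 lysosomal genes, coloured by class, over all other genes tested in both fits (grey); the dashed line marks equal change, and genes beyond the axes are not drawn. Gaa lies at 1.13 and 0.04, Npc1 at 1.03 and -0.50, and Atp6v1d at 0.04 and 1.46.

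Atp6v1d encodes subunit D, which forms part of the central rotor shaft of V1. Its footprint level was 79.2 and 73.1 CPM after LPS+DEX, 146 and 300.5 CPM after LPS, and 77.8 and 73.7 CPM in basal cells. Both LPS libraries lay above the other 4, but they differed from each other by 1.04 on the log2 scale, the only replicate difference over 1 among the 39 genes in any group. Atp6v1d footprints rose after LPS by 1.46 on the log2 scale (SE 0.24, adjusted p = 0.0017), and fell after LPS+DEX relative to LPS by 1.45 (SE 0.24, adjusted p = 0.0020). The log2 fold change for LPS over basal cells was 0.94 without LPS replicate 2 and 1.97 without LPS replicate 1, and the gene passed with any 1 library left out. For LPS+DEX over LPS it was -0.93 without LPS replicate 2 and -1.97 without LPS replicate 1, and the call was lost without LPS+DEX replicate 2 (-1.39, adjusted p = 0.0950). In mRNA the gene had 52.2 and 59.8 CPM after LPS+DEX, 72.7 and 49.2 CPM after LPS, and 44.7 and 75.2 CPM in basal cells, and the groups overlapped.

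Npc2, the soluble cholesterol carrier that hands cholesterol to Npc1, had 131 and 161 CPM of footprints after LPS+DEX, 101.3 and 103.4 CPM after LPS, and 137 and 149 CPM in basal cells. The LPS libraries were the lowest of the 6. Npc2 footprints fell after LPS (log2 fold change -0.47, SE 0.13, adjusted p = 0.0466) and rose after LPS+DEX relative to LPS (0.50, SE 0.13, adjusted p = 0.0379). Both comparisons use the same LPS libraries.

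Atp6v1a, the catalytic subunit A of V1, had 463 and 443 CPM of footprints after LPS+DEX, 373 and 400.3 CPM after LPS, and 484 and 533 CPM in basal cells. Lamp1 had 989.5 and 1197 CPM after LPS+DEX, 948 and 934 CPM after LPS, and 1200.5 and 1218 CPM in basal cells. For both genes the LPS libraries were the lowest of the 6. For LPS over basal cells the log2 fold change in footprints was -0.39 for Atp6v1a, -0.36 for Lamp1 and -0.32 for Grn, with adjusted p of 0.0208, 0.0280 and 0.0280. On the median-of-ratios scale 3 of the 39 genes rose in footprints after LPS and 1 fell, beside 4.27% higher and 3.15% lower over all genes: Atp6v1d (1.52), the V0 gene Atp6v0b (0.51) and Ctsl (0.37) were higher, and Atp6v1a (-0.33) lower. With no filter on low values 0 of the 39 passed, at 15 with an unadjusted p under 0.05, beside 1.51% higher and 1.41% lower over all genes. Without basal footprint replicate 2 the median log2 fold change was -0.07 over the 39 genes and -0.06 over all genes. These medians were -0.11 and -0.06 without LPS footprint replicate 1, and -0.12 and -0.05 without LPS footprint replicate 2.

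Adding DEX to LPS changed footprints of 4 of the 39 genes, 1 higher and 3 lower, with backgrounds of 3.14% higher and 3.55% lower. Besides Npc2 and Atp6v1d these were the proteases Ctsl and Ctsd. Ctsl encodes cathepsin L, a cysteine endopeptidase. Its footprint level was 366 and 318 CPM after LPS+DEX, 608 and 599 CPM after LPS, and 517 and 456 CPM in basal cells. The 3 groups did not overlap, with LPS highest and LPS+DEX lowest. Ctsl footprints fell by 0.82 on the log2 scale after LPS+DEX relative to LPS (SE 0.10, adjusted p = 0.000211), and leaving out any 1 of the 6 libraries kept the call, with log2 fold changes of -0.92 to -0.72. Ctsl mRNA was at 172 and 167 CPM after LPS+DEX, 239.95 and 177 CPM after LPS, and 219 and 247 CPM in basal cells, and its log2 fold changes did not pass on the CPM scale.

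Ctsd had 2257 and 2213 CPM of footprints after LPS+DEX, 2754 and 2707 CPM after LPS, and 3144 and 2954 CPM in basal cells. These groups did not overlap either, and they stood in the order LPS+DEX, LPS and basal from lowest to highest. Ctsd footprints fell after LPS+DEX relative to LPS (log2 fold change -0.29, SE 0.07, adjusted p = 0.0234). On the median-of-ratios scale the split was also 1 higher and 3 lower, beside 2.90% higher and 3.72% lower over all genes. With no filter on low values 1 gene passed, Ctsl, beside 1.22% higher and 1.62% lower over all genes. Without LPS+DEX footprint replicate 1 the median log2 fold change was 0.04 over the 39 genes and 0.04 over all genes. Without LPS+DEX footprint replicate 2 these medians were -0.02 and 0.01.

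Relative to basal cells, whose libraries are shared with a comparison above, footprints after LPS+DEX fell for 5 of the 39 genes and rose for 1, against backgrounds of 2.86% lower and 1.77% higher. The proteases Ctsl, Ctsd, Ctss and Ctsb and the tetraspanin gene Cd63 fell, and Atp6v0b rose. The log2 fold change was -0.51 for Ctsl (SE 0.10, adjusted p = 0.0090) and -0.45 for Ctsd (SE 0.07, adjusted p = 0.0016). Cd63, found on late endosomes and exosomes, had 239.5 and 227 CPM of footprints after LPS+DEX, 248 and 285 CPM after LPS, and 317 and 303 CPM in basal cells. The LPS+DEX libraries were below all others, and the log2 fold change over basal cells was -0.41 (adjusted p = 0.0424).

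Ctss, cathepsin S, which trims the invariant chain of MHC class II, had 633 and 678 CPM of footprints after LPS+DEX, 738 and 704 CPM after LPS, and 814 and 824 CPM in basal cells. Its log2 fold change over basal cells was -0.32 (adjusted p = 0.0405), and that of Ctsb was -0.27 (adjusted p = 0.0400). Atp6v0b, subunit c″ of the V0 ring, had 116 and 119 CPM after LPS+DEX, 115 and 108 CPM after LPS, and 75.6 and 87.5 CPM in basal cells. The 4 treated libraries lay above both basal ones, and the log2 fold change for LPS+DEX over basal cells was 0.53 (adjusted p = 0.0428). On the median-of-ratios scale 1 gene rose, Atp6v0b, and 2 fell, Ctsl and Ctsd, beside 2.24% higher and 2.10% lower over all genes. With no filter on low values 1 of the 39 passed, Ctsd, beside 0.60% higher and 0.77% lower over all genes. Without LPS+DEX footprint replicate 1 the median log2 fold change was -0.05 over the 39 genes and -0.03 over all genes. Without LPS+DEX footprint replicate 2 these medians were -0.14 and -0.06.

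**Figure D4:**
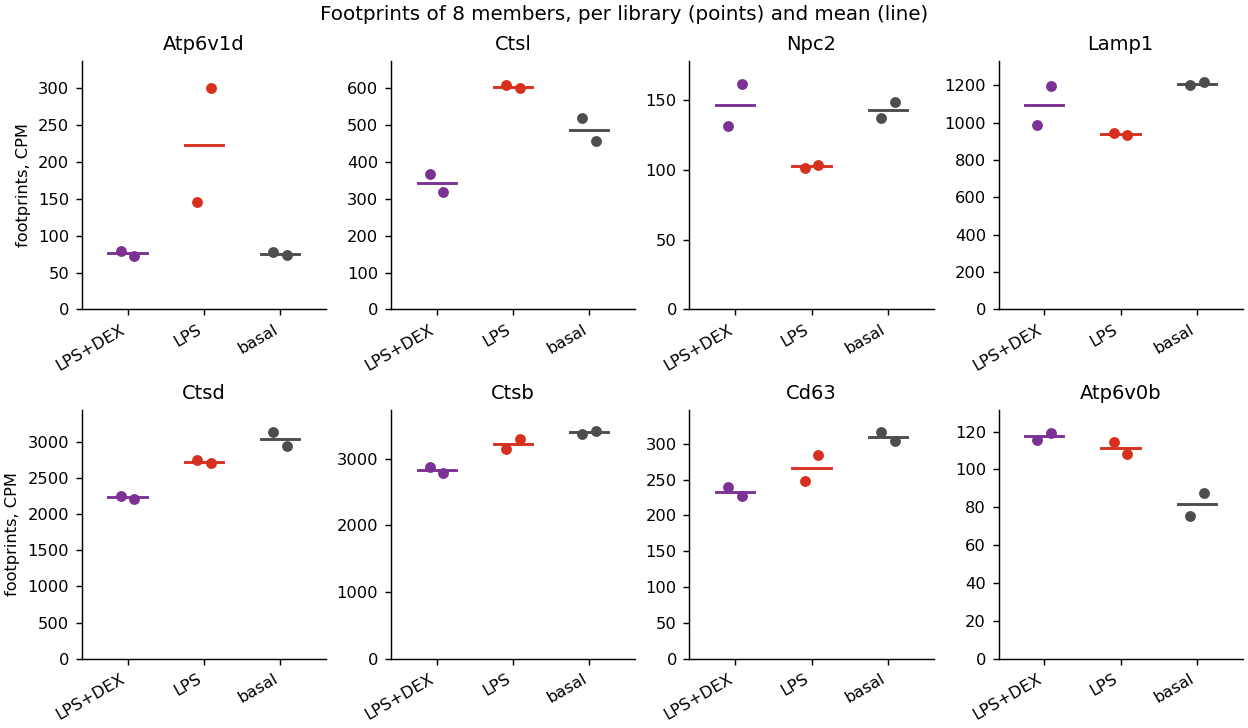
Footprints in CPM of 8 lysosomal genes in LPS+DEX, LPS and basal cells; points are libraries, lines their mean, and each axis starts at 0. Atp6v1d stands out in the LPS libraries at 146 and 300.5 CPM, Npc2 is lowest after LPS at 101.3 and 103.4 CPM, and Ctsd and Ctsl are lowest after LPS+DEX at 2257 and 2213 CPM and at 366 and 318 CPM.

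TE, the ratio of footprints to mRNA, ranked the 39 genes widely. TE levels here are the mean log2(CPM + 1) of footprints minus that of mRNA, and their median over the 39 genes was 0.30 after LPS+DEX, 0.40 after LPS and 0.72 in basal cells. Over all 9412 genes the medians were -0.08, -0.06 and 0.21 in LPS+DEX, LPS and basal cells. Of the 39 genes, 32 lay above the median of all genes after LPS+DEX, 30 after LPS and 29 in basal cells. Without basal mRNA replicate 1 the basal median was 0.71 over the 39 genes and 0.17 over all genes, and 29 again lay above it. The ratio also depends on how much of an mRNA is coding, which is not given here, so the levels are a description.

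Lamp2, the partner of Lamp1 that also serves chaperone-mediated autophagy, had the highest mean rank, with TE levels of 2.13 after LPS+DEX, 1.93 after LPS and 2.45 in basal cells. Atp6v1a followed at 2.02, 1.55 and 2.53 in LPS+DEX, LPS and basal cells, and Atp6ap2, the accessory protein also known as the prorenin receptor, at 1.84, 1.95 and 1.76. Lipa, lysosomal acid lipase, was the highest luminal gene by mean rank, at 1.37 after LPS+DEX, 1.33 after LPS and 1.75 in basal cells. The lowest were Hexa, the alpha subunit of beta-hexosaminidase, at -0.97 after LPS+DEX, -1.07 after LPS and -0.53 in basal cells, and Atp6v0b at -0.49, -0.63 and -1.12. Within the pump, the median TE level of the 8 V1 genes was 0.50 after LPS+DEX, 0.57 after LPS and 0.47 in basal cells, and that of the 5 V0 genes was 0.10, -0.14 and 0.04. Without basal mRNA replicate 1 the basal medians were 0.19 for V1 and -0.03 for V0, and the basal TE level was 2.39 for Lamp2, 2.74 for Atp6v1a and 1.51 for Atp6ap2.

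**Figure D5:**
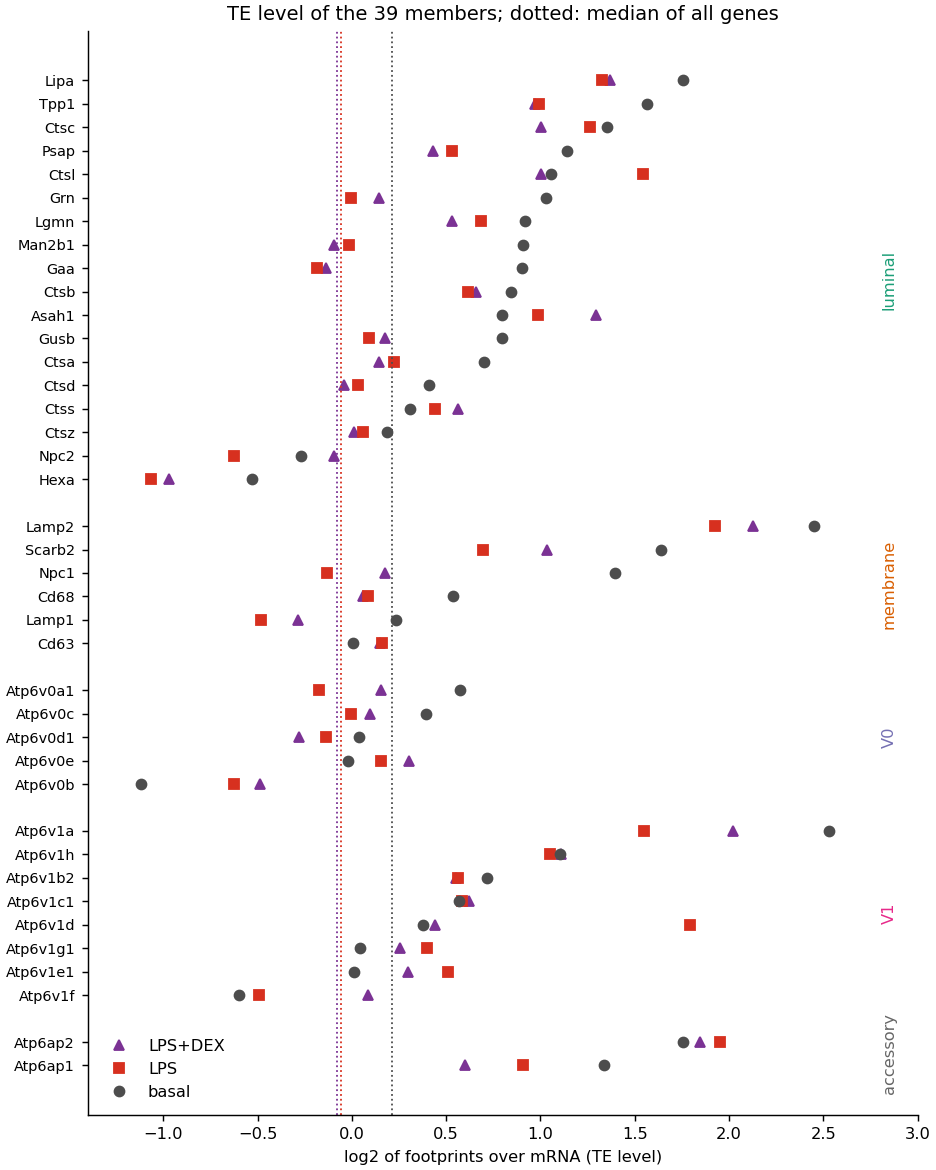
TE level (mean log2(CPM + 1) of footprints minus that of mRNA) of each of the 39 genes, by class, after LPS+DEX (triangles), after LPS (squares) and in basal cells (circles); dotted lines give the medians of all genes, at -0.08, -0.06 and 0.21. By mean rank over the 3 treatments Lamp2 and Atp6v1a are highest and Hexa and Atp6v0b lowest, though after LPS Atp6ap2 is the highest at 1.95 and in basal cells Atp6v1f, at -0.60, lies left of Hexa; Atp6v1d is at 1.79 after LPS.

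Changes of TE were tested as the log2 fold change of footprints minus that of mRNA, in 1 fit of all 12 libraries, so they use the same values as the comparisons above. After LPS relative to basal cells TE fell for 11 of the 39 genes and rose for 1, against backgrounds of 13.6% lower and 3.08% higher. The median change was -0.36 over the 39 genes and -0.34 over all genes. Without basal mRNA replicate 1 these medians were -0.21 and -0.29. The 11 comprised the luminal genes Gaa, Grn, Man2b1, Gusb, Psap, Hexa and Ctsa, the membrane genes Npc1, Lamp1 and Cd68, and Atp6v1a.

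Npc1 had the lowest change of the 39, at -1.52 (SE 0.26, adjusted p = 0.0032). Its footprint level was 70.2 and 73.6 CPM after LPS+DEX, 63.9 and 51.1 CPM after LPS, and 74.0 and 88.8 CPM in basal cells, so footprints were lower after LPS while mRNA was higher. The change was -1.09 for Gaa (SE 0.24, adjusted p = 0.0107), -1.04 for Grn (SE 0.14, adjusted p = 0.0013) and -0.98 for Atp6v1a (SE 0.29, adjusted p = 0.0360). Gaa footprints were at 143 and 141 CPM after LPS+DEX, 134 and 109 CPM after LPS, and 102 and 135 CPM in basal cells, and the LPS and basal libraries overlapped. Man2b1 fell by 0.92, Lamp1 by 0.72, Gusb by 0.70 and Psap by 0.61 on the log2 scale, with adjusted p of 0.0296, 0.0046, 0.0059 and 0.0069. Hexa fell by 0.54, Ctsa by 0.48 and Cd68, the macrophage macrosialin, by 0.45. TE of Atp6v1d rose, with a change of 1.41 (SE 0.44, adjusted p = 0.0427), and this call held in 3 of 12 fits that left out 1 library, with changes of 0.89 to 1.93.

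The TE split moved most with the scale. Median-of-ratios scaling shifted the TE change of a typical gene by 0.29, and on that scale TE of 5 genes rose and of 2 fell after LPS, beside 5.93% higher and 5.33% lower over all genes. Npc1 (-1.23, adjusted p = 0.0095) and Grn (-0.74, adjusted p = 0.0059) passed as lower, and Atp6v1d (1.70), Atp6v1e1 (0.79), Atp6v0b (0.79), Ctsl (0.78) and Atp6v1g1 (0.65) as higher. Without basal mRNA replicate 1, TE of Npc1 changed by -1.47 (adjusted p = 0.0058) and of Grn by -1.005 (adjusted p = 0.0019), and 1 of the 39 genes rose in TE and 9 fell, beside 3.10% higher and 10.2% lower over all genes. The median TE change was -0.33 over the 39 genes and -0.33 over all genes without LPS mRNA replicate 2. Both medians were also -0.33 without basal footprint replicate 1 and without LPS footprint replicate 2. Without basal footprint replicate 2 they were -0.24 over the 39 genes and -0.34 over all genes.

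Adding DEX to LPS gave 0 TE calls in either direction among the 39 genes in limma and in limma-voom, with 4 at an unadjusted p under 0.05, and backgrounds of 0.0106% higher and 0.0425% lower. Relative to basal cells, TE after LPS+DEX fell for 10 of the 39 genes and rose for 1, against backgrounds of 12.2% lower and 2.68% higher. The lowest changes were -1.22 for Npc1 (SE 0.26, adjusted p = 0.0105), -1.04 for Gaa (SE 0.24, adjusted p = 0.0151), -1.005 for Man2b1 (SE 0.26, adjusted p = 0.0223) and -0.89 for Grn (SE 0.14, adjusted p = 0.0026). Atp6ap1, the accessory protein Ac45, changed by -0.74, Psap by -0.71, Gusb by -0.62, Ctsa by -0.56, Lamp1 by -0.52 and Cd68 by -0.48, each past the threshold. Atp6ap1 footprints were at 196 and 194 CPM after LPS+DEX, 244 and 245 CPM after LPS, and 228 and 257 CPM in basal cells. Atp6v1f rose in TE by 0.68 (SE 0.18, adjusted p = 0.0223), with footprints of 166 and 188 CPM after LPS+DEX, 133 and 133 CPM after LPS, and 160 and 182 CPM in basal cells. On the median-of-ratios scale 2 genes rose in TE, Atp6v1f and Atp6v0b, and 2 fell, Npc1 and Grn, beside 5.39% higher and 3.78% lower over all genes, and the median of the 39 genes was 0.01, compared with -0.32 on the CPM scale. Without basal mRNA replicate 1, TE of 1 gene rose and of 9 fell, beside 2.66% higher and 9.59% lower over all genes. Without LPS+DEX footprint replicate 1 the TE change was -1.18 for Npc1 and -0.80 for Grn. Without LPS+DEX footprint replicate 2 it was -1.25 for Npc1 and -0.97 for Grn.

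Across mRNA, footprints and TE, 11 calls held with any 1 library left out. In footprints these were the rise of Atp6v1d after LPS, the fall of Ctsl after LPS+DEX relative to LPS and the fall of Ctsd after LPS+DEX relative to basal cells. In TE they were the falls of Npc1, Grn, Psap, Gusb and Lamp1 after LPS, and of Npc1, Grn and Psap after LPS+DEX relative to basal cells. Of the 11, the Atp6v1d call was lost with no filter on low values (adjusted p = 0.0542), and on the median-of-ratios scale those of Psap, Gusb and Lamp1 after LPS (adjusted p = 0.1017, 0.0757 and 0.0559) and of Psap after LPS+DEX (0.0619). The other 6 held in each setting run. Each of the other calls, and all of those in mRNA, was lost when at least 1 of the libraries was left out. In mRNA this loss could not set the lysosomal genes apart. For LPS over basal cells, calls over all genes also nearly vanished when either LPS library was left out. The same held for LPS+DEX over basal cells without LPS+DEX replicate 1. The mRNA log2 fold changes of the called genes kept their sign, with 1.03 to 1.23 for Gaa and 0.38 to 0.46 for Psap after LPS.

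The mRNA changes were also set beside the CLEAR core in the promoter window. For LPS over basal cells the median log2 fold change was 0.29 for the 9 genes with TCACGTG, of which 1 rose, and 0.28 for the 23 without it, of which 4 rose, against a background of 9.03% higher. Without basal replicate 1 these medians were 0.23 with it, where 1 rose, and 0.25 without it, where 2 rose. For LPS+DEX over basal cells the medians were 0.34 with it, where 4 rose, and 0.18 without it, where 4 rose and 1 fell, against backgrounds of 18.5% higher and 4.23% lower. Without basal replicate 1 they were 0.38 with it, where 2 rose and 1 fell, and 0.18 without it, where 3 rose and 3 fell. On the median-of-ratios scale they were 0.05 with it, where 1 rose and 1 fell, and -0.11 without it, where 2 rose and 5 fell. Over all genes 7.76% rose and 8.90% fell on that scale. In footprints after LPS, on the CPM scale, the medians were 0.04 with the core and -0.18 without it. The ranges of both sets overlapped in each comparison, and no test was made.

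Other lysosomal genes, taken from lists of textbook members, gave the following counts on the CPM scale, where for LPS over basal cells 9.03% of all genes rose in mRNA and 13.6% fell in TE, and for LPS+DEX over basal cells 18.5% rose and 4.23% fell in mRNA. Of 43 further hydrolases and luminal proteins, 4 rose in mRNA after LPS and 0 fell; Galns, which acts on keratan and chondroitin sulfate, had a log2 fold change of 1.16. After LPS+DEX relative to basal cells 7 of these 43 rose and 1 fell, Ctsk, the cathepsin K gene, at -1.04. On the median-of-ratios scale 1 rose and 3 fell, beside 7.76% higher and 8.90% lower over all genes. Of 33 further membrane proteins 6 rose in mRNA after LPS, among them the calcium channel genes Mcoln1 (0.93) and Tpcn2 (0.93). TE fell for 14 of the 33 after LPS, lowest for Sidt2 (-2.13) and Mcoln1 (-1.89). On the median-of-ratios scale it fell for 6, beside 5.33% of all genes. In footprints after LPS 5 of 32 membrane genes fell and 1 rose, against backgrounds of 4.32% lower and 3.3% higher. The 1 that rose was the transporter gene Pqlc2, which had 6.65 and 9.82 CPM after LPS+DEX, 45.8 and 17.0 CPM after LPS, and 2.29 and 6.58 CPM in basal cells. Its LPS libraries lay above the others and differed widely from each other.

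Of 9 further V-ATPase subunits and assembly factors tested in mRNA 2 rose after LPS, both isoforms of subunit a: Atp6v0a2 at 1.10 and Tcirg1 at 0.86. Tcirg1 mRNA was at 538 and 506 CPM after LPS+DEX, 341 and 521 CPM after LPS, and 222 and 241 CPM in basal cells, with all treated libraries above the basal ones. Of 34 genes for sorting to lysosomes 6 rose in mRNA after LPS, with Gga1 (0.9985) and Ap1g1 (0.99) highest. TE fell after LPS for 10 of the 34, beside 13.6% of all genes. On the median-of-ratios scale it fell for 4 and rose for 1, beside 5.33% lower and 5.93% higher over all genes. Of 27 genes of the MiT/TFE factors and mTORC1 at the lysosome 6 rose in mRNA after LPS. After LPS+DEX relative to basal cells 10 of the 27 rose and 0 fell. On the median-of-ratios scale 6 rose and 3 fell, beside 7.76% higher and 8.90% lower over all genes. Tfeb, a factor that binds the CLEAR motif, had 25.7 and 16.4 CPM of mRNA after LPS+DEX, 15.4 and 20.6 CPM after LPS, and 10.2 and 5.41 CPM in basal cells. Its log2 fold change for LPS+DEX over basal cells was 1.35 (adjusted p = 0.0477), and it did not pass on the median-of-ratios scale (adjusted p = 0.1126). Lamtor1, a scaffold that anchors mTORC1 signalling on lysosomes, had footprints of 69.0 and 67.6 CPM after LPS+DEX, 31.3 and 40.1 CPM after LPS, and 73.3 and 71.7 CPM in basal cells. It fell in footprints after LPS by 1.01 and rose by 0.93 after LPS+DEX relative to LPS.

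On the median-of-ratios scale 0 of the 43, 0 of the 33 and 0 of the 9 rose in mRNA after LPS, 1 of the 34 and 1 of the 27, beside 1.98% of all genes. Without basal replicate 1 the counts that rose in mRNA after LPS were 2 of the 43, 2 of the 33, 2 of the 9, 2 of the 34 and 7 of the 27, beside 7.87% of all genes. Those that rose after LPS+DEX relative to basal cells were then 7 of the 43 and 8 of the 27, with 1 of each list lower, beside 16.8% higher and 4.69% lower over all genes. TE fell after LPS for 9 of the 33 and 6 of the 34 without that library, beside 10.2% of all genes. Of the genes named here, Galns, Mcoln1, Tpcn2, Gga1 and Ap1g1 did not pass in mRNA after LPS without basal replicate 1, with adjusted p of 0.0511, 0.0875, 0.1358, 0.0571 and 0.0795.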

How the data were processed

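The study measured poly(A) mRNA and ribosome footprints of RAW264 cells on an Ion PGM sequencer, per the series design. The deposited values behave as CPM plus 1: minus 1, they are whole multiples of 1 read in 100% of cases (tolerance 0.1 read), so the authors' CPM and the reads behind them could both be recovered. Not given in the sources used here were the aligner, the genome build and the counting rule, including the use of strand; reads from near-identical copies or overlapping genes may be split. Of 9621 listed IDs, 9521 matched a symbol. The 39 genes and the other lists were chosen with earlier results of these data known.

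Tests used limma 3.58.1 in R 4.3.3 (moderated statistics with a mean-variance trend) on log2(CPM + 1), with Benjamini-Hochberg adjustment over all genes tested and a threshold of 0.05; fold changes on this scale understate those of low genes. A gene was tested with at least 10 reads, at median depth, in 2 libraries and 15 reads in all. There were 6 libraries each in the mRNA and the footprint fit and 12 in the TE fit, without a replicate block. Alternatives were log2(CPM + 2), no filter, median-of-ratios scaling, limma-voom on recovered reads, a replicate block and leaving out each library. The footprint and TE fits were tested on simulated reads with known changes. The mRNA fit was not run on them, and median-of-ratios scaling was left out of the pass check. One read was worth 0.40 to 1.22 CPM; without molecular identifiers reads are not independent molecules, and 2 libraries a group limit precision. Each gene that passed is named; values per library are given for at most the 8 largest changes of a comparison and the most abundant genes of a class, and from other lists at most the 2 highest and 2 lowest changes. The V-ATPase subunits were not compared per coding length, for which no lengths were used here. Replicate numbers were not taken to pair the samples, since correlations of same-numbered deviations between groups ran from -0.18 to 0.11.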

Additional observations from a re-analysis of the deposited data

How the results depend on the processing

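Among the 39 genes there were 54 calls, on 22 genes, and 17 genes passed nowhere. Of 732 values under other settings 511 kept the direction and the call, 221 kept the direction and lost the call, and 0 changed sign. In many of these the sign could not change. No filter, the replicate block and leaving out a library outside the comparison all keep the log2 fold change as it was. Calls lost numbered 33 of 54 under median-of-ratios scaling, 13 with no filter on low values, 11 with the replicate block, 9 with limma-voom and 0 with log2(CPM + 2). Median-of-ratios scaling gave 2 genes in mRNA for LPS against basal cells in place of 6, 3 in place of 6 in footprints for LPS+DEX against basal cells, and in TE 7 in place of 12 for LPS and 4 in place of 11 for LPS+DEX against basal cells. The replicate block gave 2 genes in mRNA for LPS against basal cells in place of 6, beside 3.63% higher and 0.57% lower over all genes. With no filter the footprint counts were 0 for LPS against basal cells in place of 5, 1 for LPS+DEX against LPS in place of 4, and 1 for LPS+DEX against basal cells in place of 6; this setting adds low genes to the fit and to the adjustment. With limma-voom 7 genes passed in TE for LPS against basal cells, beside 2.19% higher and 7.05% lower over all genes. Leaving out 1 library at a time gave counts of 0 to 7 (mRNA, LPS against basal), 0 to 10 (mRNA, LPS+DEX against basal), 1 to 7 (footprints, LPS against basal), 1 to 7 (footprints, LPS+DEX against LPS), 1 to 6 (footprints, LPS+DEX against basal), 5 to 12 (TE, LPS against basal) and 4 to 13 (TE, LPS+DEX against basal), and 0 each time for LPS+DEX against LPS in mRNA and TE. A group then rests on 1 library, assumed to vary like the others. Calls over all genes also changed in number between such fits, so these counts do not set the 39 genes apart. The cause of the other differences was not tested. Depth limits the low genes most: Scarb2 mRNA in basal replicate 1, the lowest value of the 39 genes, was 19.0 CPM where 1 read was worth 0.68 CPM.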
